A study of Triticum aestivum with 12 samples.

Results

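The genes described here lie on the arms of chromosomes 1B and 1D that face a run of low counts on chromosome 1A of the wheat cultivar TAM112. They were chosen by position in the deposited table: features of 1B that start above 10 Mb and up to 240 Mb, and features of 1D that start above 10 Mb and up to 170 Mb, less 2 genes that the rule leaves out. This gave 3229 of the 120744 features, 1852 on 1B and 1377 on 1D, of which 2365 were genes and 864 were non-coding features. The stretch was picked because counts on 1A between 10 and 210 Mb were low in TAM112, so the comparison between the cultivars took part in the choice, and cultivar values are given below as a description. The criteria for differential expression are used there only to count members beside the background, and no p-value of a member is read from that comparison. The question asked of these genes was whether they lie higher where the 1A counts of TAM112 are low.

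Polyadenylated RNA was sequenced from developing grains of the winter wheat cultivars TAM111 and TAM112 at 5 and 14 days after flowering (DAF), with 3 libraries for each cultivar and stage and 12 in all. All plants were grown in the field with standard practice, no treatment or transgene was involved, and each library held several grains of similar size from 1 inflorescence. For each group the 3 samples of best quality had been taken forward to sequencing. The libraries held 31916077 to 40464882 counts, and 1 count was worth 0.0231 to 0.0362 CPM (counts scaled to a common library total). Grains contain pericarp, endosperm and embryo, and the labelled tissue could not be checked against marker genes because the table pairs no gene with a name. In bulk tissue, fewer cells of a type and less RNA per cell cannot be told apart.

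Bread wheat is a hexaploid that carries A, B and D subgenomes, each from a different ancestor. Most genes therefore occur as a set of homeologs, 1 copy on each of the corresponding chromosomes of a group, and in many sets the copies are transcribed at similar levels. Chromosomes 1A, 1B and 1D form group 1, which in wheat is known for carrying loci of glutenin and gliadin storage proteins toward the ends of its short arms. A set of 3 homeologs is called a triad, and the share of each copy in the summed transcript level is the usual way to describe the balance among subgenomes.

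Many members were silent in grain. No count was found in any library for 1257 members (38.9%), against 26.6% of all features, and 1436 members (44.5%) passed the filter on low counts, 756 on 1B and 680 on 1D. Of the tested members, 30 were non-coding and all of these lay on 1B. The tested members had a median level of 2.8 TPM (transcript level per length and library total), close to the 3.09 of all 65080 features tested. Facing them, 625 of the 1233 features of the 1A run were tested.

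At 5 DAF, the tested members lay slightly higher in TAM112. The median log2 fold change of TAM112 over TAM111 was 0.26, with quartiles of -0.2 and 0.72, while the median of all tested features was 0.02. The shift was of similar size on 1B, where the median was 0.24, and on 1D, where it was 0.28. Above 0 lay 63.8% of the members and 51.6% of all features. In the 1A run the median was -2.69, which is a level of 0.155 times that of TAM111. A differentially expressed gene (DEG) differed by more than 1 on the log2 scale with an adjusted p under 0.01. By these criteria 61 members were higher in TAM112 (4.25%, background over all features 1.45%) and 25 were lower (1.74%, background 1.93%). Of the higher members 37 were on 1B and 24 on 1D, and of the lower members 18 were on 1B and 7 on 1D. Without replicate 2 of TAM111 the higher count was 37 (2.5%, against 0.94% of all features). Without replicate 1 of TAM112 the counts were 40 higher (2.7%, against 1.01%) and 16 lower (1.08%, against 1.37%).

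At 14 DAF the members' median was 0.25, with quartiles of -0.48 and 0.89, while the median of all features was -0.01. It was 0.22 on 1B and 0.31 on 1D, and -2.68 in the 1A run. Above 0 lay 60.9% of the members and 49.1% of all features. The DEG criteria were met by 169 members that were higher in TAM112 (11.8%, background 7.02%), 88 on 1B and 81 on 1D. They were met by 71 members that were lower (4.94%, background 7.45%), 41 on 1B and 30 on 1D. Without replicates 1, 2 and 3 of TAM111 the lower count was 46, 35 and 45. These were 3.1%, 2.37% and 3.03% of members, against 5.44%, 4.07% and 4.57% of all features. It was 33 both without replicate 1 and without replicate 2 of TAM112 (2.25%, against 3.79% and 3.74%). With no scaling factors, 378 members were higher (26.3%, against 17.4% of all features) and 45 lower (3.13%, against 3.66%), while the median of all features stood at 0.45. Relative to the median of all features, the members of 1B then lay at 0.23 and those of 1D at 0.32, as they did with scaling.

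Counting only libraries that did not overlap gave the same picture. At 5 DAF all 3 libraries of TAM112 lay above all 3 of TAM111 for 392 members (27.3%, background 13.2%) and below them for 99 members (6.89%, background 12.4%). At 14 DAF this held for 562 members above (39.1%, background 27.1%) and 305 below (21.2%, background 28.8%). Members above 0 at both stages made up 48.3% of those tested, against 33.4% of all features, and 276 members did not overlap in the higher direction at both stages (19.2%, against 8.08% of all features). Of the DEGs, 46 members were higher in TAM112 at both stages (3.2%, against 1.11% of all features), 17 were lower at both (1.18%, against 1.53%) and 0 changed sides (against 0.023%).

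In the medians of the arms, replicates of TAM112 were uneven at 5 DAF. To place each library, the median deviation of the members from the TAM111 mean was taken on the scale of log2(CPM + 0.5), which compresses the differences of low genes. On 1B the TAM112 libraries at 5 DAF stood at 0.22, 0.20 and 0.08, and on 1D at 0.24, 0.21 and 0.11. Replicate 3 was the lowest on both arms, and it was also the lowest in the 1A run, at -2.01 against -1.51 and -1.58 in replicates 1 and 2. At 14 DAF all 3 libraries stood at 0.15 on 1B and between 0.20 and 0.25 on 1D. These medians do not show the spread of single genes. Over all features, replicate 3 of TAM112 at 14 DAF differed from replicates 1 and 2 by 51.3 and 52.5 times the sampling noise. Replicates 1 and 2 differed from each other by 14.5 times. The TAM111 libraries lay between -0.03 and 0.01 on these arms. They were set against their own mean, which draws them to 0, so no separation of the cultivars is read from these values. Without both replicates 3 of 5 DAF, the medians of fitted log2 fold changes at 5 DAF were 0.29 on 1B and 0.29 on 1D. What part the difference among these libraries has in the result was not tested.

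**Figure D1:**
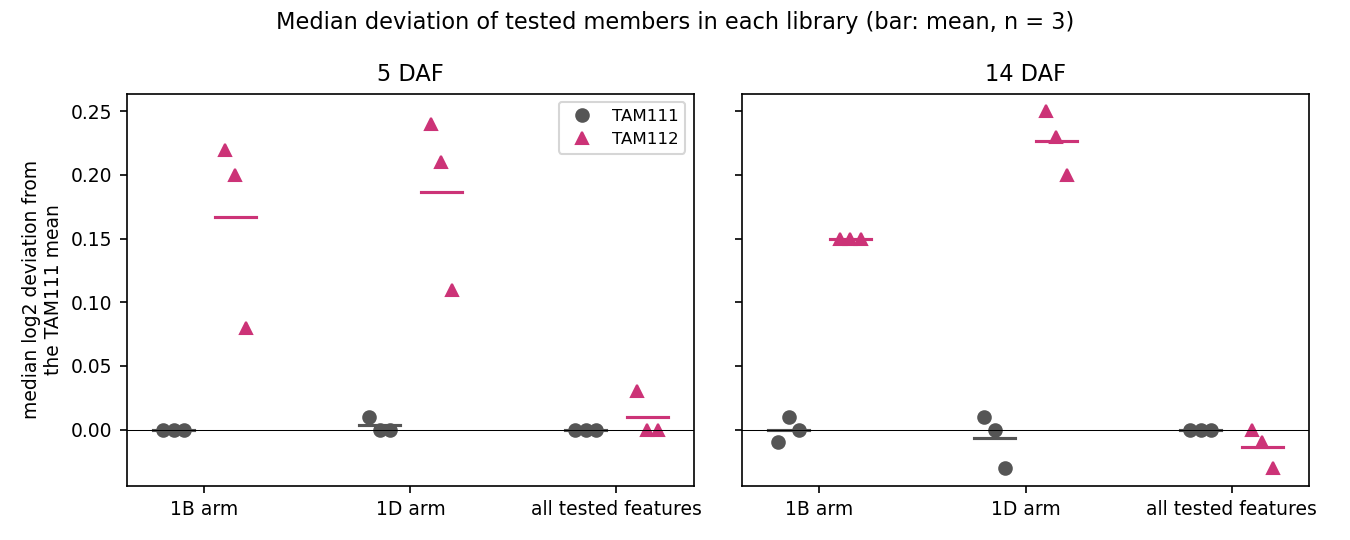
Median deviation of the tested members of each arm, and of all tested features, from the mean of TAM111, on the scale of log2(CPM + 0.5), in each of the 12 libraries. Each point is 1 library and each bar the mean of 3. The TAM112 libraries lie at 0.08 to 0.25 on the arms and between -0.03 and 0.03 over all features. The TAM111 libraries are set against their own mean, which draws them to 0.

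The shift was seen along both arms, but unevenly. When each stretch was divided into 10 equal bins, the median of the members was above 0 in 10 of 10 bins on 1B and in 10 of 10 on 1D at both stages. On 1B the bins ranged from 0.01 to 0.47 at 5 DAF and from 0.04 to 0.49 at 14 DAF, and on 1D from 0.16 to 0.43 and from 0.10 to 0.51. The bins held 23 to 119 tested members. Not every bin of 1B stood clear of all features, which had medians of 0.02 and -0.01. From 79 to 102 Mb the medians were 0.01 and 0.04, with 50.0% and 51.2% above 0, against 51.6% and 49.1% of all features. From 125 to 148 Mb they were 0.05 and 0.09, with 53.0% above 0 at each stage. The highest bin of 1B at both stages was the one nearest to the upper limit, from 217 to 240 Mb, with 24 tested members. In the 1A run, 10 of 10 bins lay below 0, from -3.38 to -1.94 at 5 DAF and from -3.44 to -1.15 at 14 DAF.

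**Figure D2:**
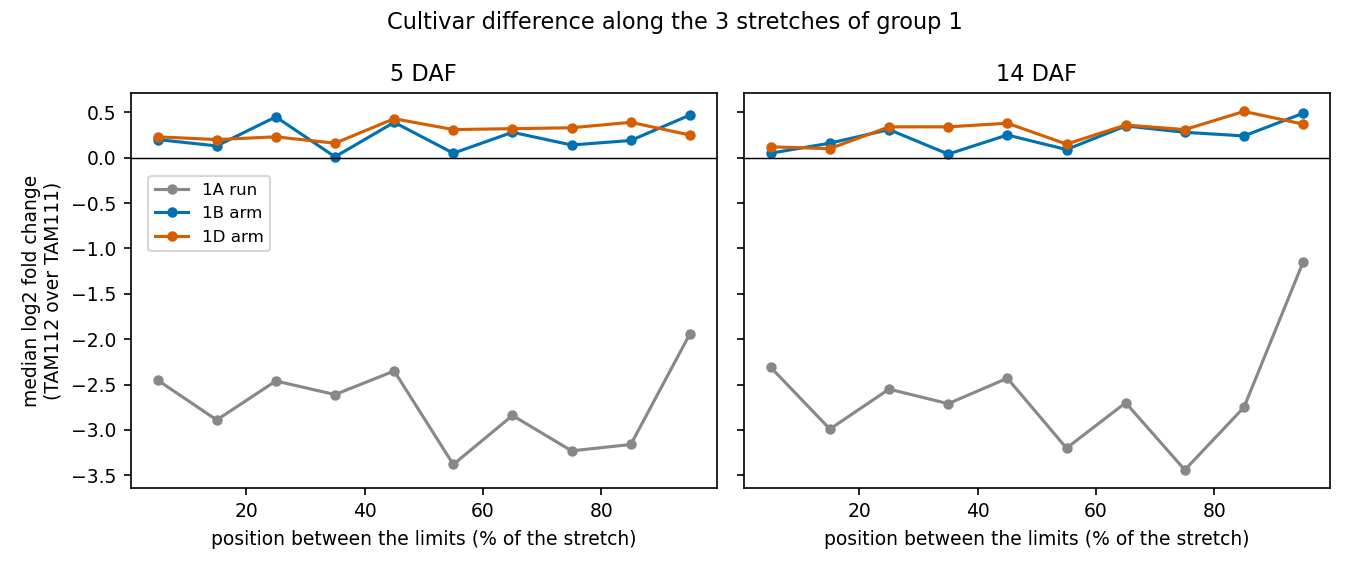
Median log2 fold change of TAM112 over TAM111 in 10 equal bins between the limits of the 1A run, the 1B arm and the 1D arm, at 5 DAF (left) and 14 DAF (right). The x axis is the position as a percent of each stretch. The 1B and 1D bins lie between 0.01 and 0.51, and the 1A bins between -3.44 and -1.15.

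Past the upper limits the medians came down. Beyond 240 Mb on 1B, the 2058 tested genes had a median of 0.04 at 5 DAF and -0.08 at 14 DAF. Beyond 170 Mb on 1D, the 2054 tested genes had medians of 0.05 and 0.02. The share of higher DEGs came down on 1B, to 1.94% at 5 DAF and 7.24% at 14 DAF, against 4.89% and 11.6% on the arm. On 1D it did not come down at 5 DAF and came down little at 14 DAF. There 94 genes (4.58%) and 217 genes (10.6%) beyond the limit were higher, against 3.53% and 11.9% on the arm. A raised share of higher DEGs was thus not particular to the 1D arm. The first 20 Mb past the limit of 1B still lay at 0.37 and 0.36, with 21 tested genes, and the next 20 Mb at 0.15 and -0.12, with 54. On 1D the first 20 Mb past the limit lay at 0.14 at both stages, with 23 tested genes. The first 10 Mb of the chromosomes, which the rule leaves out, held wider values. Their medians were 0.83 at 5 DAF and 0.30 at 14 DAF over 85 genes of 1B, and 0.46 and -0.16 over 108 genes of 1D. Across the 18 chromosomes of groups 2 to 7, medians ran from 0.00 to 0.06 at 5 DAF and from -0.05 to 0.03 at 14 DAF.

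At the limits themselves single genes varied. On 1B, TraesCS1B02G022000, just inside the lower limit, had log2 fold changes of 1.15 at 5 DAF and 1.29 at 14 DAF, and TraesCS1B02G021300, just outside, had 0.26 and 0.72. At the upper limit of 1B, TraesCS1B02G151900 inside had 0.55 and 1.19, and TraesCS1B02G152000 outside had 1.23 and 1.19. On 1D both genes at the lower limit were nearly absent from TAM111. Their group means there were at most 0.0472 CPM for TraesCS1D02G023900 inside and 0.0242 CPM for TraesCS1D02G023500 outside, while the TAM112 means ran from 1.84 to 6.0 CPM. At the upper limit of 1D, TraesCS1D02G134400 inside had 0.92 and 0.21, and TraesCS1D02G134600 outside had 0.01 and 0.08. Values just inside and just outside the limits thus covered a like range.

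The shift was also seen outside the DEGs. Members outside the DEG criteria had medians of 0.21 on 1B and 0.26 on 1D at 5 DAF, and of 0.13 and 0.22 at 14 DAF. It was also present at each level of expression. In 3 classes of mean TPM, cut to hold equal numbers of tested members, the members of 1B had medians of 0.35, 0.20 and 0.24 from the lowest to the highest class at 5 DAF and of 0.37, 0.20 and 0.16 at 14 DAF. The members of 1D had medians of 0.33, 0.36 and 0.20 at 5 DAF and of 0.29, 0.37 and 0.24 at 14 DAF. All features in the same ranges of TPM had 0.13, 0.09 and -0.09 at 5 DAF and 0.06, 0.04 and -0.13 at 14 DAF. Single-exon members of 1B stood apart from this, with medians of 0.00 and 0.01 over 118 features against 0.27 and 0.24 in the 638 with more exons. On 1D the 98 single-exon members had 0.28 and 0.31, the same as the rest.

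To set each member beside its own counterpart, genes were matched by structure. A member and a 1A gene were taken as partners when they shared the lengths of all internal exons, at least 3 of them, and no other gene of the table had that series on any other chromosome or again on theirs. This gave 108 members of 1B with a partner, of which 104 partners (96.3%) lay in the 1A run, and 108 members of 1D with 105 (97.2%). Over whole chromosomes the order of the partners followed that of the genes, with a rank correlation of positions of 0.99 over 395 pairs on 1B and 0.991 over 431 pairs on 1D. Sequences were not used here, and pairs are given as counts and medians only. Values of near-identical pairs are uncertain, because the counting of reads that match several copies is not given.

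Most members whose partner could be measured lay higher in TAM112. Both genes were tested in 186 pairs, 89 on 1B and 97 on 1D, with the partner in the 1A run. At 5 DAF the members' median was 0.32, which is 1.25-fold, and 144 of 186 (77.4%) lay above 0, while the partners' median was -2.5. At 14 DAF the members' median was 0.34 and 140 (75.3%) lay above 0, while the partners' median was -2.26. On 1B the medians were 0.37 and 0.32, and on 1D 0.31 and 0.36. Matched genes beyond the upper limits gave medians of 0.07 and 0.02 over 251 pairs on 1B and of 0.18 and 0.13 over 282 pairs on 1D, with the 1A partners at -0.05 and 0.19 for 1B and at -0.09 and 0.08 for 1D.

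By their medians, the members whose partner was a DEG lower in TAM112 were not the ones that lay highest. This split is by the DEG criteria, which depend on count level and spread as well as on the size of the reduction. At 5 DAF the partners' median was -2.69 among those that met the criteria and -1.29 among the others. At 14 DAF these were -2.48 and -0.63. At 5 DAF the 129 members whose partner was a DEG lower in TAM112 had a median of 0.30, with 11 higher and 1 lower DEG among them, and the 57 members whose partner was not had a median of 0.41, with 2 higher and 0 lower. At 14 DAF the 145 members with a lower partner had a median of 0.25, with 15 higher and 6 lower. The other 41 had a median of 0.61, with 12 higher and 0 lower. Over all features, 1.45% were higher and 1.93% lower at 5 DAF, and 7.02% and 7.45% at 14 DAF. The larger share of higher DEGs was among members with a lower partner at 5 DAF, and among the others at 14 DAF. Across the 186 pairs the rank correlation of the member's and the partner's log2 fold change was 0.189 at 5 DAF and 0.336 at 14 DAF, so that members of less reduced partners tended to lie higher. These points share their libraries, and genes are not independent replicates. A 1A gene with partners on both arms also enters once for each arm. The count of 11 of 129 at 5 DAF was 5 of 118 without replicate 2 of TAM111 and 7 of 117 without replicate 3 of TAM111. It was 5 of 115 without replicate 1 of TAM112 and 7 of 123 without replicate 2 of TAM112. In these 4 runs 0.94%, 1.11%, 1.01% and 1.1% of all features were higher, against 1.45% with all libraries. The count of 15 of 145 at 14 DAF was 9 of 125 without replicate 1 of TAM112. In that run 4.26% of all features were higher, against 7.02%.

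**Figure D3:**
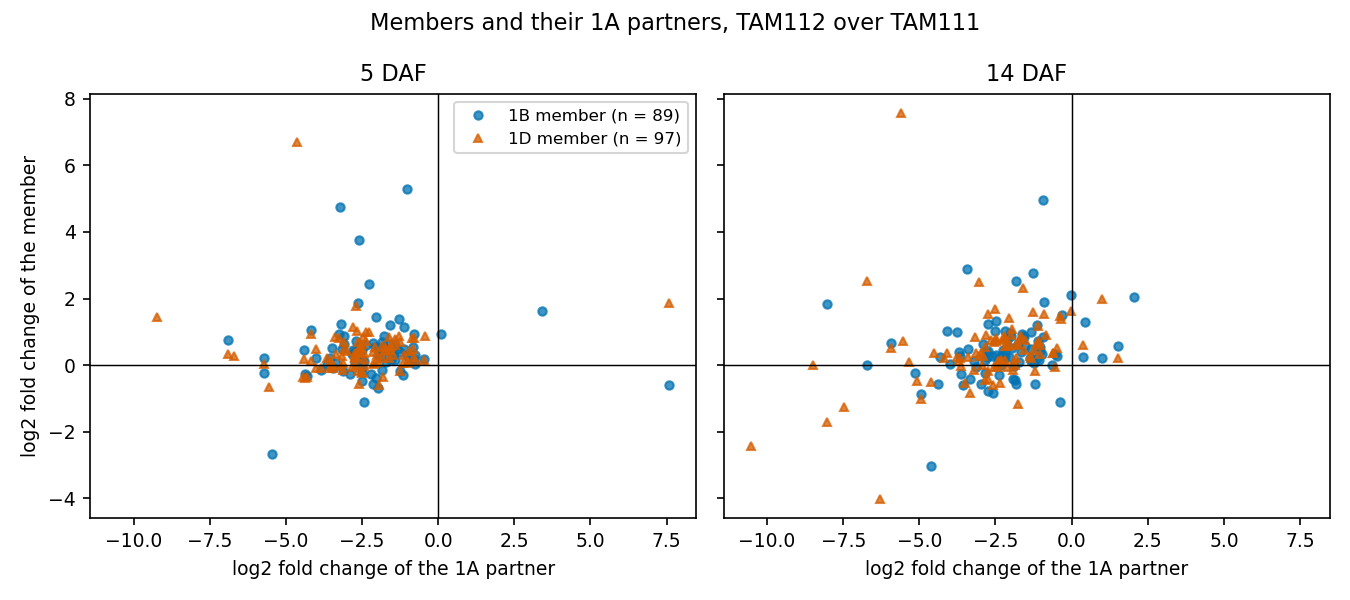
Log2 fold change of TAM112 over TAM111 of each member (y axis) against that of its 1A partner (x axis) at 5 DAF (left) and 14 DAF (right). Each point is 1 of 186 pairs, 89 with a member of 1B (circles) and 97 with a member of 1D (triangles). A 1A gene with partners on both arms gives a point for each arm. Most points lie left of 0 on the x axis, and 77.4% and 75.3% of them lie above 0 on the y axis.

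In 67 triads a 1A gene of the run had a tested partner on both arms, so the shares of the copies in the counts could be compared. How reads that match several copies were counted is not given in the sources used here, so shares of near-identical copies are uncertain. In TAM111 the 3 copies were close to even at 5 DAF, with median shares of 33.0% ± 0.777 for 1A, 32.2% ± 0.529 for 1B and 34.3% ± 0.265 for 1D (SD, n = 3). In TAM112 the shares were 6.76% ± 1.98, 45.5% ± 1.32 and 46.1% ± 0.802 (SD, n = 3). At 14 DAF they were 34.3% ± 0.252, 32.9% ± 0.351 and 32.8% ± 0.404 in TAM111 and 7.47% ± 0.53, 43.3% ± 0.404 and 47.2% ± 0.862 in TAM112 (SD, n = 3). The libraries of the cultivars did not overlap for any of the copies. The 1A share was lowest, at 4.55%, in replicate 3 of TAM112 at 5 DAF, the library with the lowest 1A run.

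**Figure D4:**
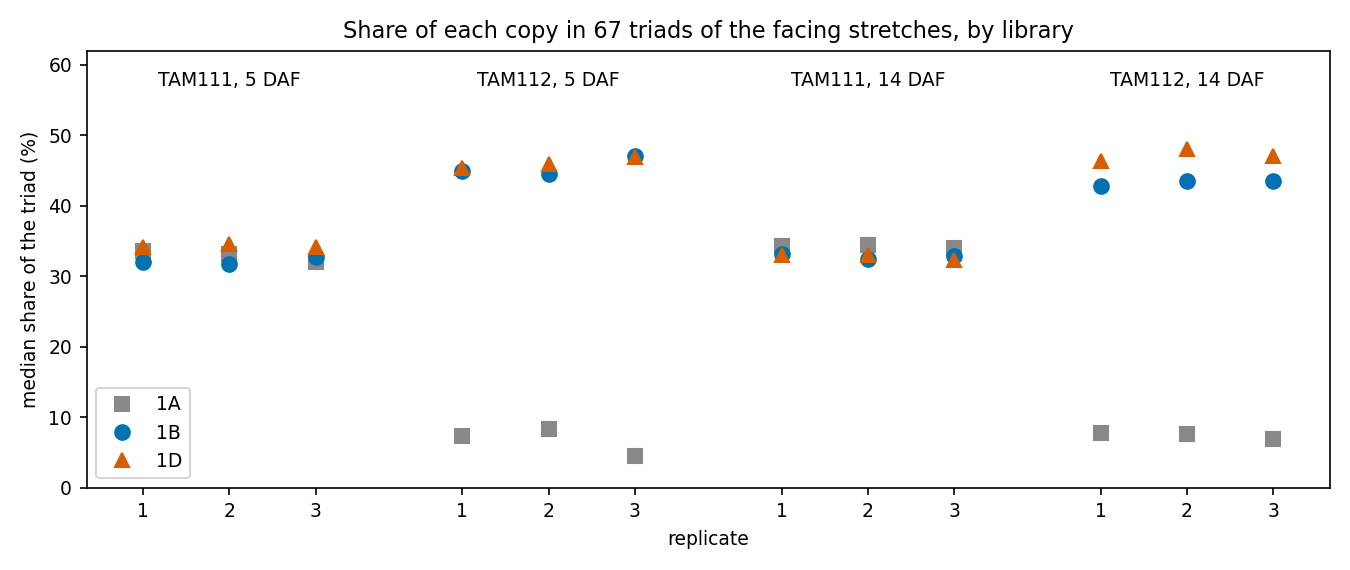
Median share of the 1A, 1B and 1D copy in 67 triads, in percent of the summed CPM per kb of the triad, in each of the 12 libraries. In TAM111 the copies lie between 31.8% and 34.6%, and in TAM112 the 1A copy lies at 4.55% to 8.37% and the 1B and 1D copies at 42.8% to 48.1%.

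Shares rise whenever 1 copy falls, so the levels of the copies were compared as well, as TMM-scaled CPM per kb. In the median triad the 1B and 1D copies together were at 1.26 times their TAM111 level at 5 DAF and at 1.31 times at 14 DAF, and they were higher in TAM112 in 57 and in 53 of the 67 triads. The 1A copy was at 0.176 and 0.218 times and was lower in 66 and in 64 triads. All 3 copies together stood at 0.948 and 0.974 times in the median triad, lower in TAM112 in 42 and in 37 of the triads. In 189 triads matched the same way beyond the limits, the 1B and 1D copies were at 1.11 and 1.08 times and higher in 59.3% and 56.1% of the triads, against 85.1% and 79.1% on the facing arms.

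The balance differed with the level of the triad. In the 34 triads at or below the median level, the 1B and 1D copies together were at 1.34 times at 5 DAF and 1.52 times at 14 DAF, and all 3 copies at 0.989 and 1.02 times. In the 33 triads above it, the 1B and 1D copies were at 1.22 and 1.18 times and all 3 copies at 0.854 and 0.923 times. Summed over all 67 triads, which gives most weight to the most abundant ones, the total was 3300 ± 350 CPM per kb in TAM111 and 2240 ± 204 in TAM112 at 5 DAF, and 2780 ± 170 and 1820 ± 66.6 at 14 DAF (SD, n = 3). The 1B and 1D copies alone summed to 2160 ± 219 and 2110 ± 168 at 5 DAF and to 1790 ± 104 and 1680 ± 69.3 at 14 DAF (SD, n = 3), and the libraries of the cultivars overlapped at both stages. Beyond the limits too, the 1B and 1D copies lay higher in triads of lower level, at 1.14 and 1.13 times, than in those above the median level, at 1.05 and 0.976 times. The higher median of the 1B and 1D copies was thus not seen in their sum.

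The whole stretches gave the same contrast between median and sum. The 1A run summed to 10700 ± 578 CPM in TAM111 and 1780 ± 480 CPM in TAM112 at 5 DAF, and to 11300 ± 1060 and 1920 ± 67.3 CPM at 14 DAF (SD, n = 3). The 1B arm summed to 13900 ± 1950 and 12800 ± 1220 CPM at 5 DAF, 0.918 times, and to 12000 ± 853 and 10800 ± 202 CPM at 14 DAF, 0.901 times. The 1D arm summed to 18700 ± 2280 and 16100 ± 1820 CPM at 5 DAF, 0.859 times, and to 14500 ± 1560 and 13700 ± 746 CPM at 14 DAF, 0.946 times. The libraries of the cultivars overlapped on both arms at 5 DAF and on 1D at 14 DAF, and on 1B at 14 DAF those of TAM112 were all lower. Same-numbered libraries at 5 DAF deviated together, a pairing read from the values and not given by the labels. In these pairs the TAM112 sum was below that of TAM111 in 3 of 3 on each arm. It was at 0.974, 0.917 and 0.877 times on 1B and 0.863, 0.881 and 0.834 times on 1D. The 10 most abundant features made up 49.8% of the 1B sum and 58.9% of the 1D sum in TAM111 at 5 DAF, and 2 of the 10 on 1B and 4 of the 10 on 1D were higher in TAM112. Without them the ratios of the sums were 1.14 and 0.98 on 1B and 1.09 and 1.08 on 1D. With no scaling factors the ratios at 14 DAF were 1.25 on 1B and 1.32 on 1D. Without replicate 2 of TAM111 at 14 DAF, the ratio of 1D was 1.01.

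The most abundant members had negative log2 fold changes at 5 DAF and did not pass the DEG criteria there. They are the 6 with the highest mean TPM over the 12 libraries. TraesCS1D02G034800 (1D, 15321414 to 15322306, 3 exons) had the highest mean, 8450 TPM, and was measured at 4940, 7440 and 8460 CPM in TAM111 and 3670, 5670 and 6840 CPM in TAM112 at 5 DAF. At 14 DAF it was at 2250, 2240 and 2600 CPM in TAM111 and 3170, 4220 and 3550 CPM in TAM112, so that the cultivars overlapped at 5 DAF and TAM112 was above TAM111 at 14 DAF, a difference outside the DEG criteria. TraesCS1B02G042200 (1B, 22069090 to 22069961, 3 exons) had a mean of 4420 TPM. It was at 2720, 4450 and 5440 CPM in TAM111 and 1570, 2480 and 3840 CPM in TAM112 at 5 DAF, and between 1040 and 1240 CPM in all 6 libraries at 14 DAF. Both were thus most abundant at 5 DAF, and within the 5 DAF groups replicate 1 was the lowest in both cultivars. Between same-numbered libraries at 5 DAF, a pairing read from the values and not given by the labels, each of the 6 was lower in TAM112 in 3 of 3 pairs.

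The other 4 had negative log2 fold changes at both stages, and of these only TraesCS1D02G101600 at 14 DAF met the DEG criteria. TraesCS1D02G109800 (1120 TPM, 1 exon) had log2 fold changes of -0.57 at 5 DAF and -0.67 at 14 DAF. TraesCS1B02G130900 (897 TPM, 1 exon) had -0.51 and -0.59. Both have the same length of 468 bases and near-parallel values in all libraries, and how reads that match several copies were counted is not given in the sources used here, so their counts are uncertain. TraesCS1D02G101600 (539 TPM, 5 exons) had -0.40 and -1.0, with 737 ± 137 CPM in TAM111 and 560 ± 87.7 CPM in TAM112 at the earlier stage, and 515 ± 47.7 and 257 ± 51.8 CPM at the later (SD, n = 3). TraesCS1D02G037300 (500 TPM, 180 bases, 1 exon) had -0.57 and -0.59.

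A part of the DEGs were at the floor of counting in 1 cultivar. Every library of TAM111 held at most 3 counts for 16 of the 61 higher members at 5 DAF (26.2%, against 29.9% of the higher DEGs among all features) and for 26 of the 169 at 14 DAF (15.4%, against 11.8%). Every library of TAM112 held at most 3 counts for 8 of the 25 lower members at 5 DAF (32%, against 22.9%) and 8 of the 71 at 14 DAF (11.3%, against 9.72%). The median log2 fold change was 2.44 among the higher and -3.67 among the lower DEGs at 5 DAF, and 1.82 and -2.58 at 14 DAF. Of the 61 members higher at 5 DAF, 60 (98.4%) had a positive log2 fold change at 14 DAF too, as did 905 of the 945 higher DEGs among all features (95.8%). The genes below lead these lists, and their folds are lower bounds computed against 3 counts per library.

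TraesCS1B02G062800 (1B, 47624907 to 47626612, 3 exons) was absent from all 6 libraries of TAM111. In TAM112 it was at 3.4, 2.46 and 4.09 CPM at 5 DAF and 1.65, 1.49 and 1.92 CPM at 14 DAF, at least 37.4-fold and at least 15.9-fold higher. TraesCS1D02G023900 (1D, 10063480 to 10065505, 3 exons) had no count in TAM111 at 5 DAF and was at 1.67, 2.71 and 2.36 CPM in TAM112, at least 25.4-fold higher. TraesCS1B02G067000 (1B, 51299894 to 51300391, 2 exons) had no count in TAM111 at 14 DAF and was at 1.77, 1.49 and 5.65 CPM in TAM112, at least 27.9-fold higher. These libraries did not overlap between the cultivars for any of the genes.

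In the other direction, TraesCS1B02G110800 (1B, 125849370 to 125850329, 2 exons) was absent from all 6 libraries of TAM112. In TAM111 it was at 3.66, 4.98 and 2.37 CPM at 5 DAF and 8.39, 11.1 and 8.88 CPM at 14 DAF, so it was at least 48.5-fold and at least 125-fold lower in TAM112. TraesCS1B02G064800 (1B, 49217414 to 49219429, 2 exons) was also absent from TAM112 and was at 6.49, 5.04 and 9.25 CPM in TAM111 at 5 DAF, a difference of at least 91.5-fold. TraesCS1B02G065000 (1B, 49429841 to 49431030, 1 exon) was at 14.8, 24.4 and 7.33 CPM in TAM111 at 14 DAF and at 0, 0.0482 and 0 CPM in TAM112, at least 206-fold lower. Of these, TraesCS1B02G062800, TraesCS1B02G064800, TraesCS1B02G065000 and TraesCS1B02G067000, which include both directions, lie near each other on 1B.

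**Figure D5:**
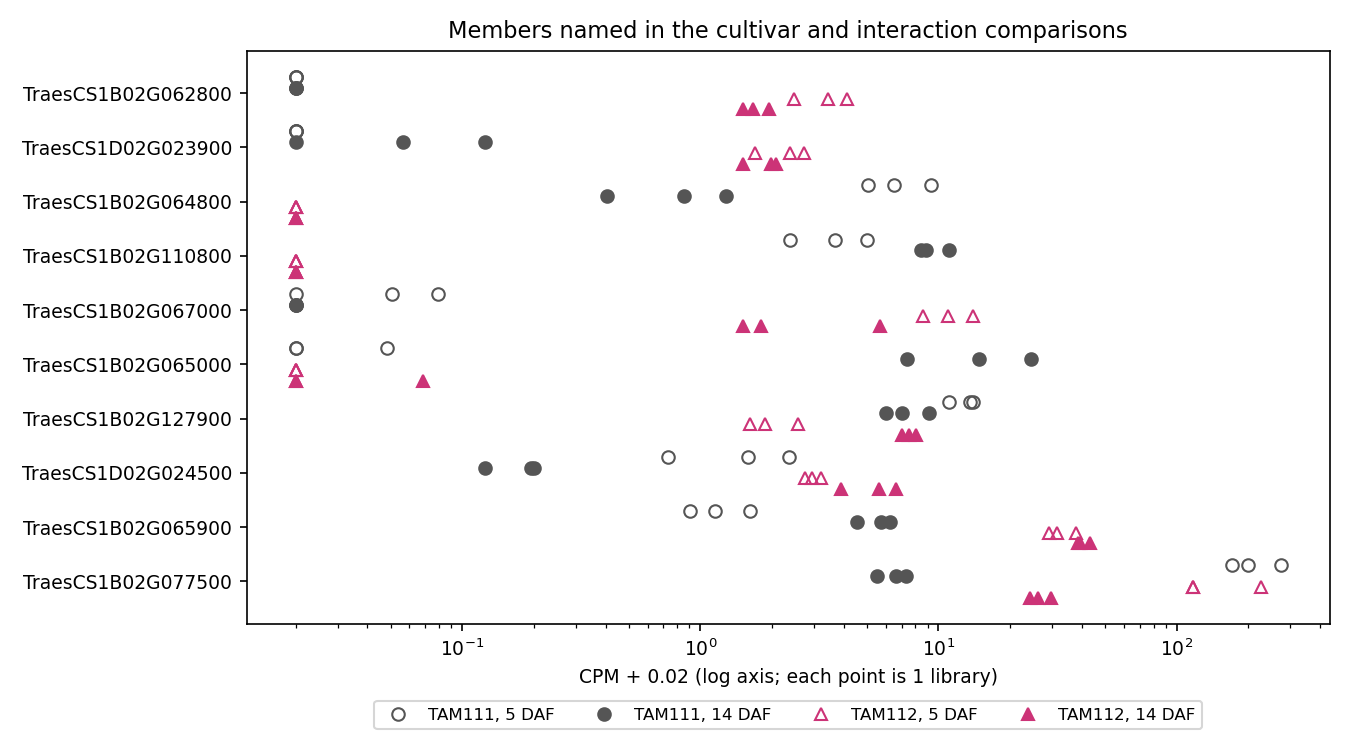
CPM + 0.02 on a log axis of 10 members named in the cultivar comparisons and in the interaction, in each of the 12 libraries. Circles are TAM111 and triangles TAM112, open at 5 DAF and filled at 14 DAF, and points at the left edge are libraries with no count. The top 6 members are at or near 0 in 1 cultivar, and the lower 4 differ between the cultivars by stage.

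The change from 5 to 14 DAF played no part in choosing the members and could be tested. In TAM111, 158 of the 1436 tested members were higher at 14 DAF (11%, background 13.4%) and 140 were lower (9.75%, background 10.6%), by the quasi-likelihood test of edgeR over all features. In TAM112, 164 were higher (11.4%, background 11.8%) and 126 were lower (8.77%, background 9.27%). In TAM112 the higher count was 106 without replicate 2 of 14 DAF (7.23%, against 7.79% of all features). The lower count was 83 and 71 without replicates 1 and 2 of 14 DAF (5.66% and 4.84%, against 6.29% and 5.74%). The cultivars shared 97 members that were higher at 14 DAF (6.75%, against 7.14% of all features) and 73 that were lower (5.08%, against 5.42%). The criteria were met in TAM111 alone by 127 members (8.84%, against 11.4%) and in TAM112 alone by 119 (8.29%, against 8.44%). The members' shares were near the background or under it.

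The members that rose most were silent at 5 DAF. TraesCS1B02G101100 (1B, 111025254 to 111026767, 3 exons) had no count in TAM111 at 5 DAF and was at 291, 273 and 464 CPM at 14 DAF, at least 3870-fold higher (edgeR, adjusted p = 6.48e-06). In TAM112 it went from at most 0.32 CPM to 256, 241 and 109 CPM. TraesCS1B02G042700 (1B, 22185724 to 22186797, 1 exon) had no count in TAM111 at 5 DAF and was at 605, 748 and 369 CPM at 14 DAF, at least 6480-fold higher (edgeR, adjusted p = 0.000151). In TAM112 at 14 DAF it was at only 2.69, 2.94 and 19.3 CPM, below all TAM111 libraries. TraesCS1D02G084900 (1D, 69179241 to 69180792, 3 exons) rose in TAM112 from 0, 0.0559 and 0 CPM to 70.2, 66.2 and 22.8 CPM, at least 701-fold (edgeR, adjusted p = 1.39e-05). TraesCS1B02G043800 (1B, 23839433 to 23840104, 2 exons) rose in TAM112 from no count to 3.12, 7.99 and 28.6 CPM, at least 175-fold (edgeR, adjusted p = 0.000579), with TAM111 at 12.1, 16.4 and 11.5 CPM at 14 DAF.

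The members that fell most were silent at 14 DAF. TraesCS1B02G090700 (1B, 91880063 to 91882375, 5 exons) had no count at 14 DAF in either cultivar. At 5 DAF it was at 21.7, 6.61 and 3.13 CPM in TAM111 and 11.7, 4.92 and 8.18 CPM in TAM112, at least 98.3-fold and at least 109-fold higher than at 14 DAF (edgeR, adjusted p = 0.000543 and 0.000633). TraesCS1B02G059700 (1B, 42325627 to 42326397, 2 exons) fell in TAM111 from 3.48, 5.54 and 13.6 CPM to no count, at least 70.8-fold (edgeR, adjusted p = 0.000812). TraesCS1B02G074400 (1B, 57765551 to 57766531, 1 exon) fell in TAM112 from 1.62, 0.587 and 1.87 CPM to no count, at least 18-fold (edgeR, adjusted p = 0.000357). Of the abundant members, TraesCS1D02G034800 fell by 1.56 ± 0.33 (SE) on the log2 scale in TAM111 (edgeR, adjusted p = 0.00235) and had a change of -0.57 ± 0.32 (SE) in TAM112, which did not pass the test (adjusted p = 0.173). TraesCS1B02G042200 fell by 1.91 ± 0.36 (SE) in TAM111 (adjusted p = 0.00115) and had a change of -1.19 ± 0.35 (SE) in TAM112 (adjusted p = 0.017). The cultivar by stage interaction of these 2 genes did not pass the test (adjusted p = 0.212 and 0.405).

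Whether the cultivar difference itself changed with the stage was tested as the interaction of cultivar and stage. It passed the DEG criteria for 4 members (0.279%, background 0.309%), and 315 members (21.9%) had an unadjusted p-value under 0.05, against 23.3% of all features. TraesCS1B02G127900 (1B, 156684949 to 156688706, 10 exons) was at 13.9, 13.5 and 11 CPM in TAM111 and 1.6, 2.54 and 1.85 CPM in TAM112 at 5 DAF, and at 9.06, 5.98 and 6.98 CPM and 7.53, 8.04 and 7.01 CPM at 14 DAF. The cultivars were thus apart at 5 DAF and overlapped at 14 DAF, with an interaction of 2.72 ± 0.3 (SE) on the log2 scale (edgeR, adjusted p = 0.0023). TraesCS1D02G024500 (1D, 10292749 to 10295636, 1 exon) was at 1.57, 0.711 and 2.34 CPM in TAM111 and 2.73, 2.91 and 3.19 CPM in TAM112 at 5 DAF, and at 0.175, 0.181 and 0.105 CPM and 5.62, 6.6 and 3.87 CPM at 14 DAF. Its cultivar difference widened with the stage, with an interaction of 4.16 ± 0.59 (SE) (edgeR, adjusted p = 0.00753).

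The other 2 were close to the threshold. TraesCS1B02G077500 (1B, 60107416 to 60109296, 3 exons) fell in both cultivars, from 170, 199 and 273 CPM to 5.51, 6.6 and 7.26 CPM in TAM111 and from 117, 117 and 227 CPM to 26.1, 24.3 and 29.6 CPM in TAM112. Its interaction was 2.52 ± 0.38 (SE) (edgeR, adjusted p = 0.00992). TraesCS1B02G065900 (1B, 50183589 to 50186456, 8 exons) rose in TAM111 from 1.6, 0.889 and 1.13 CPM to 4.53, 5.73 and 6.25 CPM, and was at 31.3, 37.8 and 29 CPM and at 39.3, 43.1 and 38.5 CPM in TAM112. Its interaction was -1.89 ± 0.29 (SE) (edgeR, adjusted p = 0.00992). With the replicate number as a block, TraesCS1D02G024500 and TraesCS1B02G065900 no longer passed (edgeR, adjusted p = 0.0163 and 0.019). Other members passed in their place, and the count was again 4 (0.279%, against 0.161% of all features). The count of 4 lay between 0 and 20 when 1 library was left out. It was 0 without replicate 3 of TAM111 at 14 DAF (against 0.0507% of all features). Without replicate 3 of TAM112 at 14 DAF it was 20 (1.35%, against 1.44%). Without replicate 3 of TAM112 at 5 DAF it was 15 (1.01%, against 1.37%), and it was 1 or 2 without any of the others. A single member met the stage criteria in opposite directions in the cultivars (0.0696%, against 0.0384% of all features), and it was picked out after its values were seen. TraesCS1D02G038100 (1D, 18241885 to 18243567) rose in TAM111 from 0.0698 ± 0.0361 to 0.379 ± 0.148 CPM and fell in TAM112 from 3.33 ± 0.705 to 1.17 ± 0.401 CPM (SD, n = 3), and its interaction of -3.91 did not pass (edgeR, adjusted p = 0.0129).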

How the data were processed

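Reads were trimmed (Cutadapt, Trimmomatic) and mapped by the authors with HISAT2. The reference was the IWGSC RefSeq v1.0 assembly of Chinese Spring, and featureCounts assigned reads to annotation v1.1. The deposited counts are whole numbers per feature, not normalized, with positions and lengths in the same table, and coordinates are those of that build. The libraries were made with a directional kit. Whether featureCounts used the strand, and how it treated reads matching several copies, is not given in the sources used here. Values of near-identical homeologs, overlapping genes and antisense genes are therefore uncertain. All columns with values per library were used (0 left out).

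The growth text in the labels names a cultivar that matches neither cultivar label, in all 12 samples alike. Libraries were grouped by title and cultivar label, which do not say that replicates came from separate plots, so p-values measure the spread between these samples. Replicate pairs differed by 14.5 to 52.5 times the sampling noise, and none was counted as a duplicate. Both ends lay in TAM112 at 14 DAF. There replicates 1 and 2 differed by 14.5 times, and replicate 3 differed from them by 51.3 and 52.5 times. In TAM112 at 5 DAF these values were 25.8, 46.8 and 48.3. In R 4.3.3 with edgeR 4.0.16, features were kept with filterByExpr (65080 of 120744), scaled with TMM factors (0.767 to 1.19), and fitted with 1 coefficient per group over all 12 libraries. Quasi-likelihood tests were adjusted by Benjamini-Hochberg over all features tested. DEGs changed by more than 1 on the log2 scale at an adjusted p under 0.01. The study set these thresholds on fold changes shrunken with ashr and p-values weighted with IHW, while fold changes here are unshrunken. Floors of 3 counts cover counting error only. TPM was computed from counts and lengths. DESeq2 1.42.0 was among the alternatives, and the fits were tested on simulated data. None of the table's gene IDs matched the RefSeq gene table at hand, so no gene is named, grouped by function or shown by sequence here.

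The members, lists and tests were chosen with earlier results of these data known. The rule named, among members past the DEG criteria whose libraries did not overlap and whose higher group reached 1 CPM, those with the largest change, here the first 2 per direction, the 6 of highest mean TPM, the members past the interaction, and the genes at the limits. The match of 1A partners by exon lengths was chosen after seeing the data. Same-numbered libraries of the cultivars at 5 DAF deviated together (correlations 0.365, 0.34 and 0.528), which is read from the values. Correlations of the other group pairs ran from -0.283 to 0.107. Only the 5 DAF libraries were therefore compared as pairs, for the sums and the most abundant members. The main fit and its tests did not use this pairing. The alternative with the replicate number as a block used that number at both stages, although only the 5 DAF libraries deviated together.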

Additional observations from a re-analysis of the deposited data

Results flagged for a closer look

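The cultivar difference of 4 members differed between 5 and 14 DAF by the test of the interaction (edgeR quasi-likelihood, Benjamini-Hochberg over all features, 3 libraries per group). The interaction, as the change from 5 to 14 DAF in TAM112 less that in TAM111 on the log2 scale, was 2.72 for TraesCS1B02G127900 (adjusted p = 0.0023), 4.16 for TraesCS1D02G024500 (adjusted p = 0.00753), 2.52 for TraesCS1B02G077500 (adjusted p = 0.00992) and -1.89 for TraesCS1B02G065900 (adjusted p = 0.00992). TraesCS1B02G127900 kept the call in 20 of 22 alternatives, TraesCS1B02G077500 in 11 of 22, TraesCS1D02G024500 in 10 of the 21 that could be run for it and TraesCS1B02G065900 in 9 of 22. Their adjusted p-values reached at most 0.0168, 0.0778, 0.0354 and 0.132 in that order. With 3 libraries per group, no library was tested as an outlier.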

How the results depend on the processing

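The medians of both arms stayed above 0 under every alternative run. The 1B median at 5 DAF was 0.18 with no filter on low counts and 0.40 with no scaling factors, and the 1D median was 0.44 with no scaling factors. At 14 DAF the 1B median was 0.23 with at least 10 counts in every library, 0.20 with no filter, 0.69 with no scaling factors and 0.23 without both replicates 3 of 5 DAF, and the 1D median was 0.34 with at least 10 counts and 0.77 with no scaling factors. Leaving out 1 library gave 0.20 to 0.29 and 0.19 to 0.25 on 1B and 0.19 to 0.31 and 0.27 to 0.32 on 1D, at 5 and 14 DAF.

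Counts of members moved more. At 5 DAF the higher and lower counts with DESeq2 were 93 (6.48%, against 2.57% of all features) and 41 (2.86%, against 3.2%). With at least 10 counts they were 31 (3.16%, against 0.897%) and 12 (1.22%, against 1.53%). With glmTreat against a log2 fold change of 1 they were 27 (1.88%, against 0.804%) and 10 (0.696%, against 1.16%). At an adjusted p under 0.05 they were 106 (7.38%, against 2.77%) and 40 (2.79%, against 3.17%). At 14 DAF the counts with glmTreat were 53 (3.69%, against 1.58%) and 20 (1.39%, against 1.92%). With no scaling factors they were 378 (26.3%, against 17.4%) and 45 (3.13%, against 3.66%). The lower count was 37 with at least 10 counts (3.78%, against 7.66%) and 126 at 0.05 (8.77%, against 11.7%). Higher and lower counts by stage were 93 and 79 in TAM111 and 109 and 70 in TAM112 with at least 10 counts, and 79 and 52 and 58 and 35 with glmTreat. The interaction count was 65 with DESeq2 (4.53%, against 4.98%) and 14 with at least 10 counts (1.43%, against 1.21%). It was 0 with glmTreat (against 0.0261%), 10 with no filter (0.507%, against 0.466%) and 19 with no scaling factors (1.32%, against 1.37%). Without both replicates 3 of 5 DAF it was 12 (0.814%, against 1.32%), and at 0.05 it was 53 (3.69%, against 4.59%). Leaving out 1 library gave 37 to 68 and 16 to 25 at 5 DAF, and 115 to 176 and 33 to 81 at 14 DAF. By stage it gave 126 to 174 and 113 to 145 in TAM111, and 106 to 169 and 71 to 130 in TAM112. The interaction count ran from 0 to 20. The 37 and 68 at 5 DAF were 2.5% and 4.6% of members, against 0.94% and 1.6% of all features. The 16 and 25 were 1.08% and 1.69%, against 1.37% and 1.85%. At 14 DAF the 115 and 176 were 7.73% or 7.78% and 11.9%, against 4.0% or 3.79% and 7.32%. The 33 and 81 were 2.25% and 5.47% or 5.48%, against 3.79% or 3.74% and 8.06% or 8.41%.

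The ratios of the arm sums, all under 1, turned above 1 without the 10 most abundant features (1B 1.14 at 5 DAF, 1D 1.09 and 1.08) and with no scaling factors (1B 1.02 and 1.25, 1D 1.32 at 14 DAF). The 1B ratio at 14 DAF was 0.98 without these 10, and the 1A ratio was 0.217 without them and 0.237 with no scaling factors. Leaving out 1 library gave 0.851 to 0.972 and 0.872 to 0.936 on 1B, 0.804 to 0.915 and 0.916 to 1.01 on 1D, and 0.149 to 0.191 and 0.166 to 0.18 on 1A. Members with a lower partner had medians of 0.38 and 0.38, and 7 of 86 higher at 5 DAF, with at least 5 internal exons. Leaving out 1 library gave medians of 0.25 to 0.35 and 0.20 to 0.29. The counts of higher DEGs were 5 to 10 at 5 DAF and 9 to 16 at 14 DAF. The number of members with a lower partner ran from 115 to 128 and from 120 to 149 in these runs. The cause of these moves was not tested.

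With the replicate number as a block, 57 members were higher (3.97%, against 1.27% of all features) and 22 lower (1.53%, against 1.85%) at 5 DAF. At 14 DAF 170 were higher (11.8%, against 6.71%) and 63 lower (4.39%, against 6.96%). The block moved no count by over 1.5 times. It ended the call of 2 of the interaction members. The interaction count with the block was again 4 (0.279%, against 0.161% of all features), so other members passed in their place. Of the named genes, 386 results kept their call, and 37 lost it, each of these an interaction. The cultivar and stage genes were named for the largest changes, so little is read from the calls they kept. A split of pairs by sequence identity was not run because sequences were not used here. Members with few counts and groups of 3 libraries limit the precision.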
